A study of Homo sapiens with 6 samples.

Results

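The genes described here are 43 ribosome biogenesis and RNA polymerase I genes, taken from a fixed list of symbols and read from 60504 genes in the count table. All 43 symbols were found, each for a single gene, and all 43 passed the filter on low counts, with between 99 and 46058 counts per library. Transcripts were measured by RNA sequencing in HepG2, a human line derived from a liver carcinoma and grown here in DMEM. The treated group received oridonin, a plant diterpenoid, at 10 µM, and the control group received 0.1% DMSO, each for 48 h. There were 3 libraries per group, and whether the oridonin wells also held DMSO is not stated in the labels. The series title states that the study looks for the metabolic mechanism of oridonin, and the comparison available is oridonin against DMSO at a single dose and time in a single cell line.

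Ribosomes are built in the nucleolus. RNA polymerase I transcribes the ribosomal DNA into a long precursor RNA, with UBTF on the DNA and RRN3 bridging the polymerase to the promoter. Box C/D particles methylate the precursor and box H/ACA particles convert uridines to pseudouridine, each guided by small nucleolar RNAs. Large assemblies of processing factors then cut the precursor and fold it into the small (40S) and the large (60S) subunit. Many genes of this pathway are known targets of the transcription factor MYC, which binds the E-box sequence CACGTG.

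Promoters are shown first because E-boxes were common in this set. RefSeq promoter sequences on GRCh38.p14 (250 bases before to 50 after the start site) matched 38 of the 43 genes; NOP58, NOLC1, RRP12, BOP1 and RRS1 had no sequence used here. The E-box CACGTG, which reads the same on both strands, was found in 14 of the 38 promoters (36.8%), against 7.43% of 27305 promoters and 10.1% of the 10810 promoters whose genes were tested. In 12 of the 14 promoters an E-box began within 30 bases of the start site. It was present in 4 of 11 promoters of genes called higher with oridonin, 2 of 5 of genes called lower and 8 of 22 of genes that were not called. The E-boxes of the 6 called genes are printed 5′ to 3′ in the direction of the gene, with the E-box in capitals and 12 bases on each side.
FBL: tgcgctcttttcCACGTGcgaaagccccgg
UTP20: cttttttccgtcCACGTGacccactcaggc
RRP9: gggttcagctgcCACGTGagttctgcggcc
PES1: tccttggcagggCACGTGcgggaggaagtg
EBNA1BP2: gatattgttggcCACGTGggatcgaagacc
NOP10 upstream: gtagggacactcCACGTGttttagcctgca
NOP10 at the start: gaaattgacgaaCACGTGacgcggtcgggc

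The FBL window is chr19:39846356-39846385 (minus strand, as for PES1, RRP9, EBNA1BP2 and NOP10), and its E-box began 6 bases after the start site. The PES1 window is chr22:30591880-30591909, with the E-box 13 bases after the start site. The RRP9 window is chr3:51941892-51941921, with the E-box 5 bases before the start site. In UTP20, on the plus strand, the window is chr12:101280083-101280112 and the E-box began 10 bases before the start site. The EBNA1BP2 window, chr1:43172790-43172819, lies farther off, 237 bases before the start site. NOP10 held a pair of E-boxes, in chr15:34343289-34343318 and chr15:34343130-34343159, which began 170 and 11 bases before its start site. Genes called higher and genes called lower thus both held the motif within a few bases of the start site.

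CCGGAAGT, a sequence bound by ETS factors, was found on either strand in 7 of the 38 promoters (18.4%), against 4.44% of all promoters and 8.75% of those of tested genes. The palindromic NRF1 motif was found in 5 (13.2%), against 1.36% and 2.28%. The palindromic BANP motif was found in 0 of 38, against 0.469% and 0.925%. No matches of different motifs overlapped in these 38 promoters, and a match describes the letters only.

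After 48 h of oridonin the 43 genes changed little and in both directions. A gene was called where edgeR's quasi-likelihood test gave an adjusted p (Benjamini-Hochberg, over all 15116 genes tested) under 0.05. Of the 43, 12 were called higher (27.9%), 5 were called lower (11.6%) and 26 were not called. Over all genes tested, 41.9% were called, 20.6% higher and 21.3% lower, beside 39.5% of the 43 genes. Among the 10588 tested genes within the range of mean DMSO levels that the 43 genes spanned, 49.1% were called, 22.3% higher and 26.8% lower. The median log2 fold change of the 43 genes was 0.06, beside 0.01 over all genes tested. None changed 2-fold: the highest level relative to DMSO was that of BOP1, at 1.33-fold, and the lowest was that of NPM1, at 0.823-fold. The split depended on scaling. Levels here are CPM, the share of a library's counts on a per-million basis, with library sizes adjusted by TMM (trimmed mean of M values), which is meant to offset a few very abundant genes. When libraries were scaled by total counts instead, 21 of the 43 rose and 1 fell, the median of the 43 was 0.14, and 65.5% of calls over all genes were upward instead of 49.2%.

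**Figure D1:**
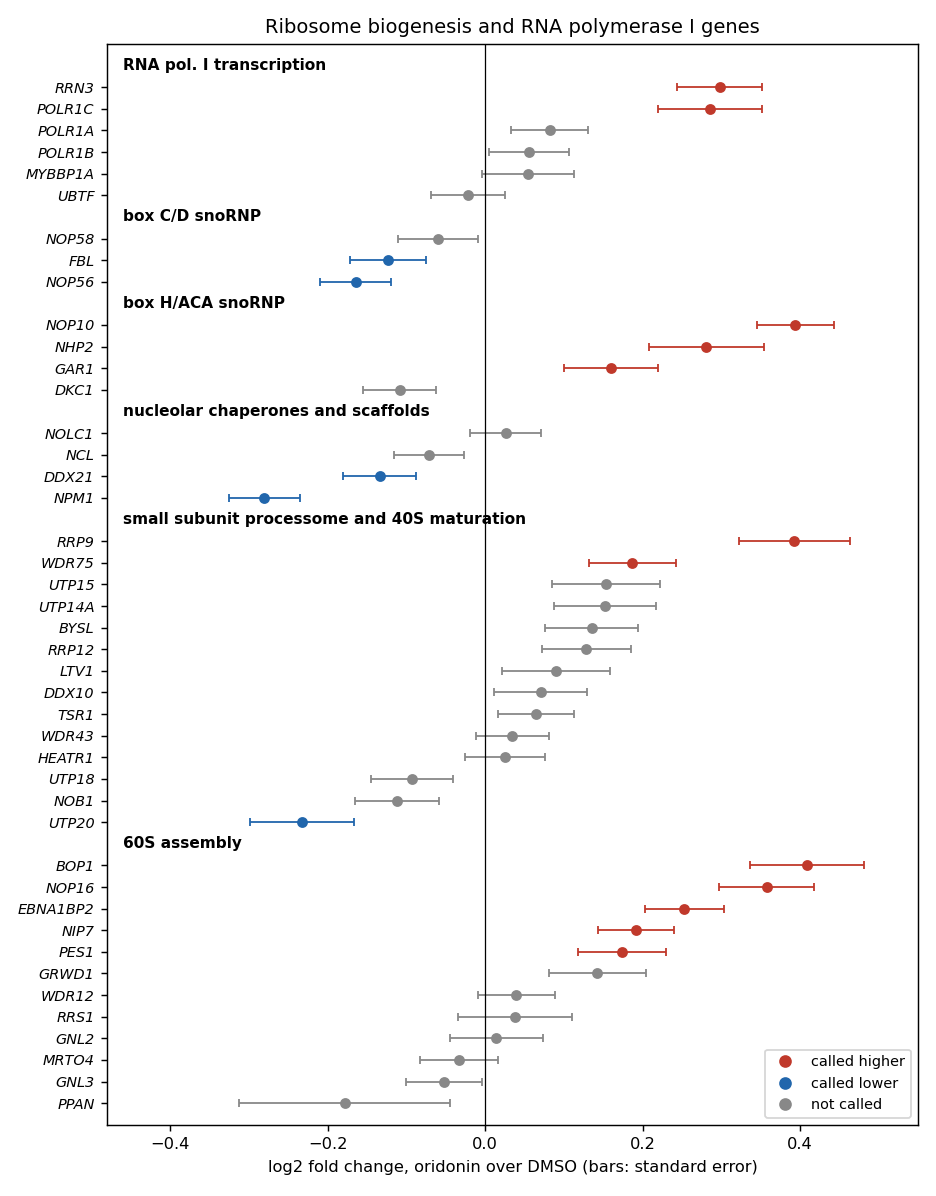
Log2 fold change of each of the 43 genes, oridonin over DMSO, grouped by role, with bars for the standard error (3 libraries per group); red, called higher; blue, called lower; grey, not called. All values lie between -0.28 (NPM1) and 0.41 (BOP1), and called genes stand on both sides of 0.

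Total counts ran from 22250202 to 30739574 per library, and the 43 genes together took between 0.755% and 0.794% of them. The hepatocyte and HepG2 markers fixed for this line (9 genes, among them ALB and AFP) were present in every library. They summed to 24059 to 27976 CPM of total counts in DMSO and 15118 to 17569 in oridonin. ALB, AFP, APOA1, APOB, SERPINA1 and TF were lower in every oridonin library. FGB was higher (5.05 to 6.10 CPM in DMSO and 12.9 to 14.8 in oridonin), and HNF4A and TTR overlapped between the groups. Summed markers of other cells were low: 8 immune markers took 2.88 to 10.5 CPM in DMSO and 12.9 to 43.1 in oridonin, with the B cell marker MS4A1 at 0 counts in all 6 libraries. Gut epithelium markers (7 genes) took 2.07 to 5.83 and 9.63 to 15.8 CPM, and endothelial markers (4 genes) 5.40 to 7.29 and 8.02 to 9.04 CPM. Fibroblast markers (5 genes) took 57.7 to 65.6 and 35.6 to 37.4 CPM, nearly all of it PDGFRB (56.2 to 63.3 and 31.2 to 35.1 CPM), while COL1A1 was at 0.270 to 1.51 CPM in DMSO and 1.85 to 2.96 CPM in oridonin. The part of these transcripts in the results was not tested. In bulk RNA, fewer cells of a type and less RNA per cell cannot be told apart. All 10 proliferation genes examined, MKI67 and TOP2A among them, were called lower (median -0.67, log2), beside 21.3% of all genes tested. Their part in the results was not tested either.

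Among 6 genes of RNA polymerase I transcription, 2 were called higher (33.3%) and none lower, beside 20.6% and 21.3% over all genes tested. RRN3, the initiation factor that recruits the polymerase, was at 119.9, 116 and 118 CPM in the DMSO libraries and at 145, 155 and 136 CPM in the oridonin libraries. The groups did not overlap, and RRN3 rose by a log2 fold change of 0.30 ± 0.05 (SE, 3 libraries per group, adjusted p = 0.000267 by edgeR). RRN3 has 3 annotated pseudogenes whose counts summed to 210 to 401 per library, at most 8.68% of its own, so reads shared with these copies make its value uncertain. POLR1C, a subunit that RNA polymerases I and III share, was at 22.2, 21.9 and 22.8 CPM in DMSO and at 25.8, 28.1 and 27.7 CPM in oridonin. Again the groups stood apart, with a log2 fold change of 0.29 ± 0.07 (edgeR adjusted p = 0.00212). Exons of POLR1C overlap those of XPO5 and YIPF3 on the opposite strand over 6.27% and 2.32% of their length. Both neighbours had higher levels than POLR1C, and the strand setting is not given in the sources used here, which makes its value uncertain.

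The other polymerase I genes were not called. POLR1A, the largest subunit and part of the catalytic core, was at 195, 184 and 186 CPM in DMSO and at 207, 193 and 198 CPM in oridonin. These ranges overlapped, with a log2 fold change of 0.08 ± 0.05 (SE, 3 libraries per group, adjusted p = 0.192 by edgeR). UBTF, the factor that covers active ribosomal DNA, was at 133, 136 and 141 CPM in DMSO and at 134, 134 and 136 CPM in oridonin. Its oridonin values fell inside the DMSO range (log2 fold change -0.02 ± 0.05, edgeR adjusted p = 0.736), and with total-count scaling its sign was opposite, at 0.06. POLR1B, the second largest subunit, and MYBBP1A, a nucleolar protein that also binds transcription factors, had log2 fold changes of 0.06 and 0.05. With total counts only, POLR1A and POLR1B were called, at 0.16 and 0.14. POLR1A was also called with the correction for length (0.15, adjusted p = 0.0113) and with a replicate block (0.08, adjusted p = 0.043).

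Small nucleolar RNA particle genes had calls in both directions. Of the 3 box C/D core genes, NOP56 and FBL were called lower (66.7%, beside 21.3% over all genes tested). NOP58 was not called. Both called genes averaged over 200 CPM in DMSO, where 50.4% of all genes tested were called lower. NOP56, a scaffold protein of the particle, was at 414, 425 and 411 CPM in DMSO and at 362, 380.2 and 373 CPM in oridonin. All oridonin libraries lay below all DMSO libraries, and NOP56 fell at a log2 fold change of -0.16 ± 0.05 (SE, 3 libraries per group, adjusted p = 0.00725 by edgeR). FBL, fibrillarin, the methyltransferase, was at 214, 221 and 230.3 CPM in DMSO and at 203, 199 and 209 CPM in oridonin. Its groups were apart by a narrow gap (log2 fold change -0.12 ± 0.05, edgeR adjusted p = 0.0467). NOP58, the partner scaffold of NOP56, had a log2 fold change of -0.06 ± 0.05 and was not called. Neither call held under total-count scaling, where NOP56 was at -0.09 (adjusted p = 0.138) and FBL at -0.04 (adjusted p = 0.475). FBL was also not called with upper-quartile scaling (adjusted p = 0.0804), no filter on low counts (adjusted p = 0.18) or either set of deposited log2 FPKM values (adjusted p = 0.15 and 0.118).

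Of the 4 box H/ACA core genes, the 3 that encode small proteins were called higher (75%, beside 20.6% over all genes tested). DKC1, the pseudouridine synthase itself, was not called. NOP10 (hg38 chromosome 15, 34341713 to 34343177, minus strand), a small protein that sits on the synthase, was at 75.4, 75.5 and 78.7 CPM in DMSO and at 100.6, 100.5 and 100.5 CPM in oridonin. The oridonin libraries lay well above the DMSO libraries, and NOP10 rose by a log2 fold change of 0.39 ± 0.05 (SE, 3 libraries per group, adjusted p = 5.87e-06 by edgeR). NHP2, an RNA-binding member of the particle, was at 32.2, 32.9 and 33.8 CPM in DMSO and at 42.1, 35.3 and 42.9 CPM in oridonin. Oridonin library 2 stood close to the DMSO libraries, and the log2 fold change was 0.28 ± 0.07 (edgeR adjusted p = 0.00502). NHP2 shares 27.4% of its exon bases with RMND5B on the opposite strand, which had a similar level (34.8 CPM in DMSO), so its value is uncertain.

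GAR1, which helps the particle release its product, was at 50.7, 54.4 and 52.9 CPM in DMSO and at 63.2, 55.8 and 57.7 CPM in oridonin. Oridonin library 1 was the highest and the others stood just above the DMSO range (log2 fold change 0.16 ± 0.06, SE, edgeR adjusted p = 0.0413). DKC1, examined here because its partners moved and thus after its values were seen, was at 178, 185 and 183 CPM in DMSO and at 165, 170.4 and 172 CPM in oridonin. Its groups did not overlap either, but in the other direction, with a log2 fold change of -0.11 ± 0.05 that missed the threshold (edgeR adjusted p = 0.0701).

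Ratios of 2 transcripts within a library do not depend on how libraries are scaled, and 7 such ratios were computed within complexes. The NOP10 to DKC1 ratio was 0.422, 0.407 and 0.430 in DMSO and 0.610, 0.590 and 0.585 in oridonin. That is a difference of 0.50 on the log2 scale, with all oridonin libraries above all DMSO libraries. NHP2 to DKC1 rose in mean from 0.181 ± 0.00369 to 0.237 ± 0.0262 and GAR1 to DKC1 from 0.289 ± 0.00474 to 0.349 ± 0.0297 (SD, n = 3), also without overlap. In an exact permutation test (two-sided) each of these ratios had p = 0.1, the smallest that 3 against 3 libraries allow. After Benjamini-Hochberg adjustment over the 7 ratios it was 0.175. NOP10, NHP2 and GAR1 were each higher in every oridonin library and DKC1, the shared denominator, was lower in every one. The ratios to DKC1 therefore had to separate, and their p adds nothing to the values per gene. Within box C/D, NOP56 to FBL was 1.88 ± 0.0824 in DMSO and 1.83 ± 0.0694 in oridonin, and NOP58 to FBL was 0.690 ± 0.0412 and 0.720 ± 0.0502 (SD, n = 3). Both box C/D ratios overlapped between the groups.

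**Figure D2:**
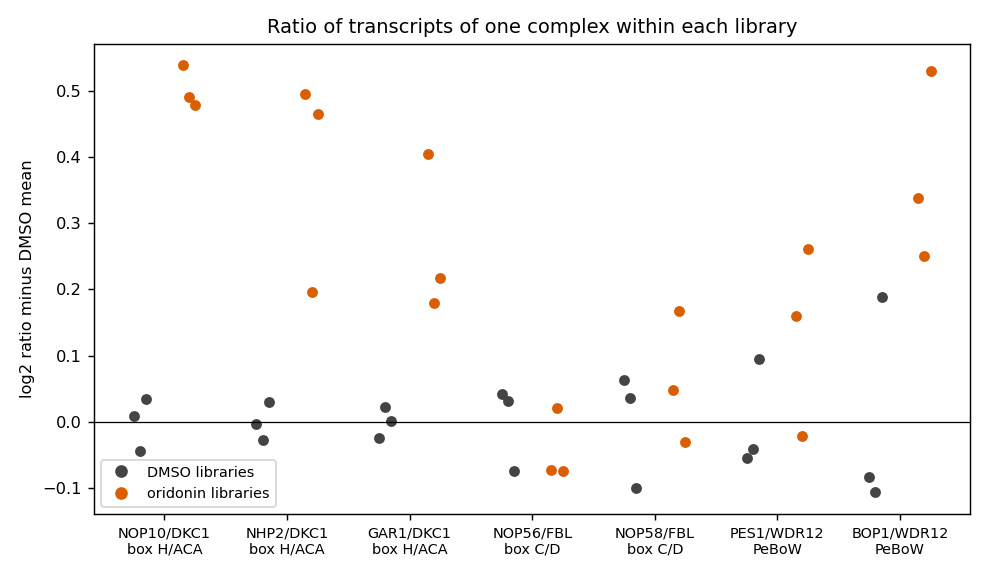
Log2 ratio of 2 transcripts of the same complex in each library, minus the mean of the DMSO libraries (dark points, DMSO; orange points, oridonin; 3 libraries each). The NOP10, NHP2 and GAR1 to DKC1 ratios and the BOP1 to WDR12 ratio do not overlap between the groups, while the other 3 ratios overlap.

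Of 4 nucleolar chaperones and scaffolds, 2 were called lower (50%) and none higher, beside 21.3% and 20.6% over all genes tested. All 4 averaged over 200 CPM in DMSO, where 50.4% of all genes tested were called lower. NPM1 (hg38 chromosome 5, 171387116 to 171411137, plus strand), nucleophosmin, an abundant nucleolar chaperone, was at 1534, 1569 and 1529.6 CPM in DMSO and at 1249, 1326 and 1239 CPM in oridonin. The oridonin libraries lay far below the DMSO libraries, and NPM1 fell at a log2 fold change of -0.28 ± 0.05 (SE, 3 libraries per group, adjusted p = 9.51e-05 by edgeR). It was the only gene of the 43 that was called lower in all 17 alternative settings, with values from -0.31 to -0.20. NPM1 has 45 annotated pseudogenes, and their counts summed to at most 1.58% of its own.

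DDX21, an RNA helicase of polymerase I transcription and precursor processing, was at 503, 523 and 491 CPM in DMSO and at 467, 467 and 448 CPM in oridonin, with no overlap. Its log2 fold change was -0.13 ± 0.05 (SE, 3 libraries per group, adjusted p = 0.0273 by edgeR). The call did not hold with total counts (-0.05, adjusted p = 0.371), upper-quartile scaling (adjusted p = 0.0567), no filter on low counts (adjusted p = 0.108) or either set of deposited log2 FPKM values (adjusted p = 0.0844 and 0.065). NCL, nucleolin, was at 1500.4, 1549 and 1491 CPM in DMSO and at 1446, 1478 and 1397 CPM in oridonin. Its groups did not overlap, but the change was small and not called (-0.07 ± 0.04, edgeR adjusted p = 0.214). NOLC1, a chaperone of small nucleolar RNA particles, had a log2 fold change of 0.03 ± 0.05.

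Small subunit factors were mostly not called: of 14, 2 were called higher and 1 lower (14.3% and 7.14%, beside 20.6% and 21.3% over all genes tested). RRP9, which binds the U3 small nucleolar RNA that guides early cleavage, was at 62.9, 67.5 and 74.3 CPM in DMSO and at 89.0, 82.2 and 97.8 CPM in oridonin. The groups were apart although each spread widely, and RRP9 rose by a log2 fold change of 0.39 ± 0.07 (SE, 3 libraries per group, adjusted p = 0.000372 by edgeR). WDR75, a member of the sub-complex that links polymerase I transcription to processing, was at 68.1, 71.4 and 64.5 CPM in DMSO and at 77.6, 79.9 and 74.5 CPM in oridonin. Its log2 fold change was 0.19 ± 0.06 (edgeR adjusted p = 0.0118).

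UTP20, a very large scaffold protein of the small subunit processome, was at 100.1, 92.1 and 92.7 CPM in DMSO and at 88.6, 81.2 and 72.4 CPM in oridonin. All oridonin libraries lay below all DMSO libraries (log2 fold change -0.23 ± 0.07, SE, edgeR adjusted p = 0.0101). The other members of the WDR75 sub-complex, HEATR1, WDR43 and UTP15, had log2 fold changes of 0.02, 0.03 and 0.15 and were not called. UTP14A, BYSL and RRP12, which act in processing and export of the subunit, were at 0.15, 0.14 and 0.13. UTP14A shares sequence with its close copy UTP14C, which makes its value uncertain. DDX10, a helicase, the export adapter LTV1 and the maturation factor TSR1 were at 0.07, 0.09 and 0.06. HEATR1 and TSR1 share exon bases with LGALS8 and SRR on the opposite strand, over 23.1% and 20.7% of their length, and are uncertain in the same way. NOB1, the nuclease that makes the last cut of the small subunit RNA, and UTP18 were at -0.11 and -0.09. The groups did not overlap for UTP15, UTP14A, BYSL and NOB1, although none of these 4 was called.

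Of the 12 genes of 60S assembly, 5 were called higher (41.7%) and none lower, beside 20.6% and 21.3% over all genes tested. BOP1 and PES1 form the PeBoW complex with WDR12, which is needed to process the large subunit RNA. BOP1 was at 146, 145 and 173 CPM in DMSO and at 197, 196 and 224 CPM in oridonin. The lowest oridonin library lay above the highest DMSO library, and BOP1 rose by a log2 fold change of 0.41 ± 0.07 (SE, 3 libraries per group, adjusted p = 0.000521 by edgeR). PES1 was at 171, 174 and 186.0 CPM in DMSO and at 199, 186.1 and 213 CPM in oridonin. DMSO library 3 and oridonin library 2 all but touched, and the log2 fold change was 0.17 ± 0.06 (edgeR adjusted p = 0.0191).

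WDR12 was at 110.5, 111 and 108 CPM in DMSO and at 111, 118 and 111 CPM in oridonin. These values overlapped (log2 fold change 0.04 ± 0.05, SE, edgeR adjusted p = 0.548). The BOP1 to WDR12 ratio was 1.41 ± 0.165 in DMSO and 1.82 ± 0.183 in oridonin (SD, n = 3) and did not overlap between groups (exact permutation p = 0.1, adjusted 0.175). The PES1 to WDR12 ratio did overlap, at 1.61 ± 0.0933 and 1.77 ± 0.172 (SD, n = 3).

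NOP16, a nucleolar protein of 60S assembly, was at 28.8, 29.9 and 31.5 CPM in DMSO and at 38.2, 38.7 and 38.6 CPM in oridonin. The oridonin libraries were close to each other and above all DMSO libraries (log2 fold change 0.36 ± 0.06, SE, 3 libraries per group, adjusted p = 0.000153 by edgeR). EBNA1BP2, an assembly factor, was at 84.5, 87.2 and 89.8 CPM in DMSO and at 104, 107 and 101 CPM in oridonin. It rose without overlap by 0.25 ± 0.05 on the log2 scale (edgeR adjusted p = 0.000635). NIP7, which is required for precursor processing, was at 90.5, 93.4 and 92.5 CPM in DMSO and at 103, 107 and 105 CPM in oridonin. Its groups were also apart (0.19 ± 0.05, edgeR adjusted p = 0.004). On the opposite strand, HIGD2A overlaps 7.93% of the exon bases of NOP16 and COG8 overlaps 20.1% of those of NIP7. These shares are from GENCODE release 29, where the ends of NIP7 differ from the deposited ones. HIGD2A and COG8 were at lower levels than the gene they overlap (17.9 and 17.7 CPM in DMSO). The values of NOP16 and NIP7 are thus uncertain too.

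The other 60S genes were not called. The GTPase genes GNL2 and GNL3 (nucleostemin) had log2 fold changes of 0.01 and -0.05. RRS1, which helps load the 5S RNA particle, was at 0.04, MRTO4, a placeholder for a stalk protein, at -0.03, and GRWD1, a chaperone of ribosomal protein L3, at 0.14. PPAN had the lowest level of the set, with 4.23 CPM on average in DMSO, and its standard error was the largest, at 0.13 beside a log2 fold change of -0.18. PPAN also shares exon bases with P2RY11 on the same strand, so its value is uncertain.

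**Figure D3:**
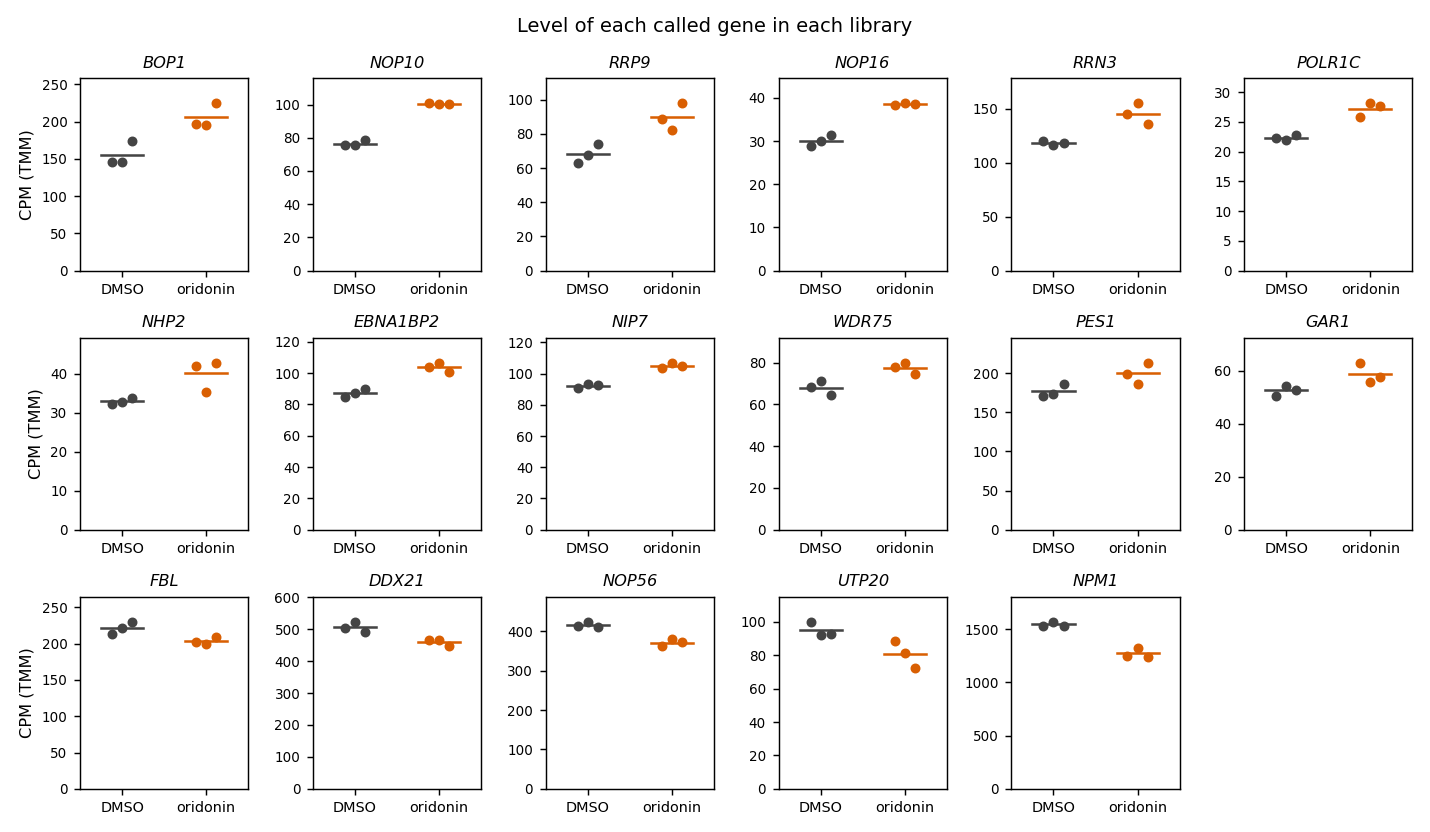
CPM (TMM-scaled) of the 17 called genes in each of the 6 libraries, with horizontal lines for group means; every vertical axis starts at 0. The groups do not overlap in any of the 17 panels, and the changes are small relative to the level, as for NPM1 at 1239 to 1326 CPM with oridonin and 1529.6 to 1569 CPM with DMSO.

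Counted without the test, the libraries of the groups did not overlap in 23 of the 43 genes, 15 with oridonin higher and 8 with oridonin lower. That is 53.5%, beside 51.6% over all genes tested (26% higher and 25.6% lower). Among the 26 genes not called, log2 fold changes ran from -0.18 to 0.15 with standard errors of 0.04 to 0.13 and edgeR adjusted p of 0.0682 to 0.872.

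Levels differed widely among the 43 genes. On the deposited log2 FPKM scale, which corrects for gene length, NPM1 was the highest in DMSO with a mean level of 8.65, followed by NCL at 7.76, NOP10 at 7.10, FBL at 6.65 and DDX21 at 6.64. PPAN was the lowest at 0.70. Of the 6 genes that averaged 200 CPM or more in DMSO, 4 were called lower and none higher, and their median change was -0.13 (log2). Of the 37 genes under 200 CPM, 12 were called higher and 1 lower, with a median of 0.08. This mark was chosen after the values were seen, and the same lean was present over all genes tested. There, 983 genes reached 200 CPM, with 16% called higher, 50.4% lower and a median of -0.13, and 14133 lay under it, with 21% higher, 19.2% lower and a median of 0.02. The Spearman correlation of the log2 fold change with the mean level in DMSO was -0.46 over the 43 genes and -0.19 over 15033 tested genes, as a description, since the points share libraries and the DMSO level enters both measures.

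**Figure D4:**
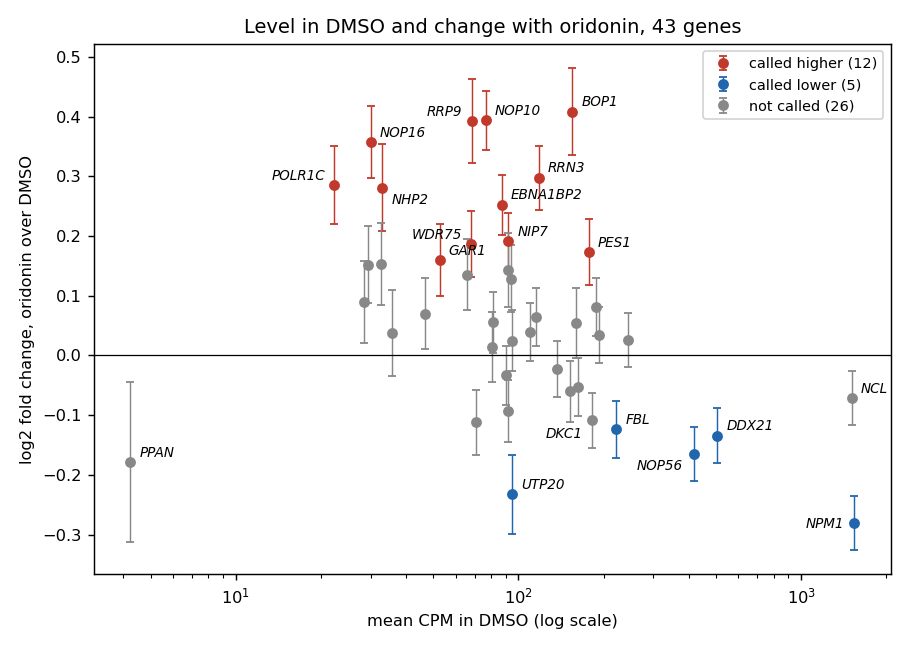
Mean CPM in DMSO (horizontal, log scale) against the log2 fold change, oridonin over DMSO (vertical, bars for the standard error), for the 43 genes. The 4 called genes above 200 CPM lie below 0, and all 12 genes called higher lie under 200 CPM.

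Library deviations were related to GC content. Within each group, the deviation of a library from the group mean over the 43 genes had a Spearman correlation with transcript GC content of 0.72 in DMSO library 3 and 0.74 in oridonin library 3, against -0.72 in oridonin library 2 and -0.55 in DMSO library 2. Libraries 1 differed between the groups, at -0.44 in DMSO and 0.03 in oridonin. BOP1, RRP9 and PES1 were highest in library 3 of both groups. With an offset that removed each library's trend on GC content, all 17 calls were kept and 7 more genes were called, which gave 17 higher and 7 lower. Over the 43 genes the log2 fold change itself had Spearman correlations of 0.13 with GC content and -0.21 with gene length, again as descriptions.

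Of the 17 called genes, 10 were called in the same direction in all 17 alternative settings: RRN3, POLR1C, NHP2, NOP10, RRP9, BOP1, NOP16, EBNA1BP2, NIP7 and NPM1. Of the other calls, all but UTP20 were lost in at least 1 of the 6 fits that left out a library. Most of these smaller fits also called fewer genes in all (5282 to 6547, beside 6332 with all libraries). A lost call therefore does not single out a library. FBL was not called without DMSO replicate 2 or 3 or oridonin replicate 1 or 2 (edgeR adjusted p = 0.11, 0.119, 0.134 and 0.124). DDX21 was not called without DMSO replicate 1 or 2 or oridonin replicate 1 or 3 (adjusted p = 0.0508, 0.144, 0.0622 and 0.108). PES1 was not called without DMSO replicate 1 or 2 or oridonin replicate 1 or 3 (adjusted p = 0.0865, 0.0838, 0.0513 and 0.103), nor on the full set of deposited log2 FPKM values. GAR1 was not called without DMSO replicate 1 or 2 or oridonin replicate 1 (adjusted p = 0.157, 0.0638 and 0.243), nor by DESeq2 (adjusted p = 0.1). The GAR1 call was also lost with the length correction and on the full set of deposited log2 FPKM values. NOP56 was not called without oridonin replicate 1 (adjusted p = 0.0526), nor WDR75 without oridonin replicate 2 (adjusted p = 0.0531). UTP20 was called with each library left out, but not with total counts (adjusted p = 0.0881) or on the deposited log2 FPKM values (adjusted p = 0.0599). Without DMSO replicate 3, UTP15, RRP12, BYSL and GRWD1 were called higher (adjusted p = 0.0451, 0.0121, 0.00895 and 0.0036).

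The rest of the pathway was read from 140 further genes, of which 139 were tested. There 45 were called higher (32.4%) and 9 lower (6.47%), against 20.6% higher and 21.3% lower over all genes tested. Their median change was 0.09 (log2). Scaling by total counts gave 74 higher and 4 lower. Other small subunit factors had 17 of 47 higher and 1 lower. In that list MPHOSPH10, which works with the U3 particle, fell from a mean of 212 to 143 CPM (log2 fold change -0.58 ± 0.05, SE, edgeR), while RCL1 rose by 0.49 ± 0.06 and UTP3 by 0.30 ± 0.06. Other large subunit factors had 18 of 52 higher and 4 lower. NOP53 fell at -0.43 ± 0.06, and SBDS and LSG1, which act late on the cytoplasmic 60S particle, rose by 0.33 ± 0.06 and 0.34 ± 0.06.

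Other polymerase I subunits and factors had 2 of 14 higher (14.3%) and 1 lower (7.14%), beside 20.6% and 21.3% over all genes tested. POLR2L, a subunit that nuclear RNA polymerases share, and TAF1C rose by 0.39 and 0.23, and TAF1D fell at -0.17. The RNA exosome, which trims precursor RNA, had 4 of 15 higher (26.7%) and 1 lower (6.67%), with EXOSC8 at -0.36, C1D at 0.24 and DIS3 at 0.24. Genes that assemble small nucleolar RNA particles had 4 of 11 higher (36.4%) and 2 lower (18.2%). ZNHIT6 and NOPCHAP1 were at 0.32 and 0.33 and TCOF1 (treacle) at -0.18.

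Cytosolic ribosomal protein genes, whose products the pathway builds into subunits, stood beside these. Of 22 examined, 19 were called lower (86.4%, beside 21.3% over all genes tested) and none higher, and the median change was -0.21 (log2). The mean log2 CPM of the 43 genes minus that of the 22 ribosomal protein genes, which does not depend on scaling, was -3.64, -3.70 and -3.67 in the DMSO libraries and -3.36, -3.35 and -3.39 in the oridonin libraries. All oridonin libraries were thus above all DMSO libraries in that difference. Every ribosomal protein gene examined was above 200 CPM, where 50.4% of all genes tested were called lower. Under that mark, where 37 of the 43 genes lay, 19.2% were. The part of level in this difference was not tested.

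**Figure D5:**
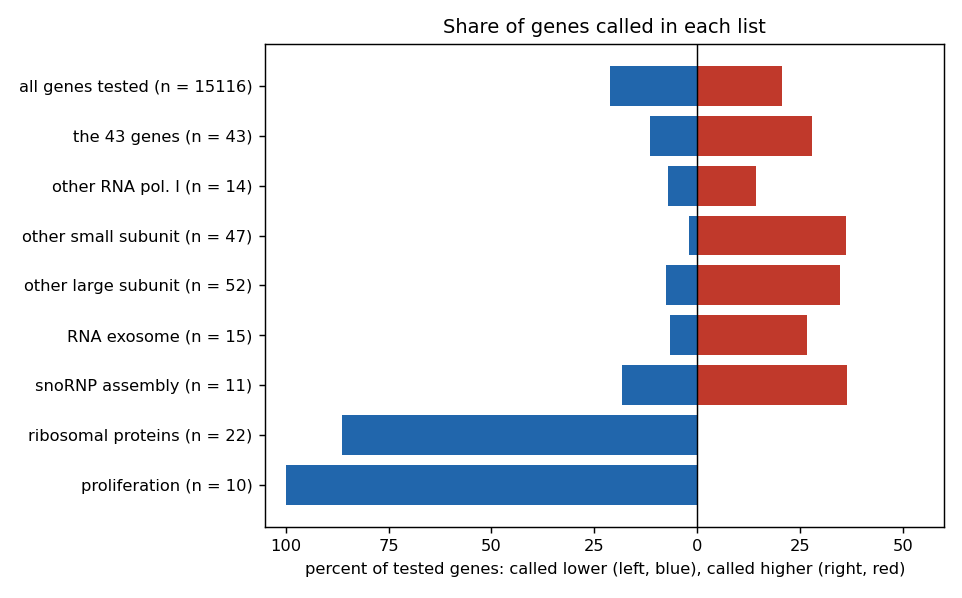
Percent of tested genes called lower (blue, to the left) and higher (red, to the right) with oridonin in each gene list and over all genes tested, with the number tested in brackets. The 43 genes had 27.9% higher and 11.6% lower, the ribosomal protein genes had no gene called higher and all 10 proliferation genes were called lower.

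Of the 43 genes, 9 contain annotated small nucleolar RNA genes in GENCODE release 29, 28 in all, with 6 in GNL3, 5 in NOP56 and 4 in NOP58. The one in POLR1C lies beyond the deposited end of that gene. Counts of these small RNAs ran from 0 to 11 per library, and no comparison was made on them. Of the 9 host genes, POLR1C was called higher and NOP56 lower, beside 20.6% and 21.3% of all genes tested, and 6 had a log2 fold change below 0.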

How the data were processed

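The authors deposited raw counts per gene for 60504 genes and log2 FPKM values for 18404 genes, the set that has a count in every library. The submitters' processing notes name the build hg38 and the tool DESeq2 1.10.1. No aligner, counting program or strand option is given in the sources used here. Columns were matched to libraries by the names in the labels. The labels do not say whether the 3 samples of a group came from separate cultures, so p-values reflect the spread among these samples alone, and that spread may be technical. No pair of libraries within a group agreed within sampling noise.

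Counts were tested with edgeR 4.0.16 in R 4.3.3 (filterByExpr, TMM, glmQLFit with robust estimation, glmQLFTest, treatment as the only term), with p-values adjusted over 15116 genes. The SE is the size of the log2 fold change divided by the square root of F. Counts for this comparison were also simulated (15121 genes). Of genes changed by 0.5 on the log2 scale 89% were called, and of those changed by 1, 100%. False calls were 5.5%. No smaller change was simulated, and the largest in the fixed list of ribosome biogenesis and RNA polymerase I genes was 0.41 in size. These rates therefore do not tell how often changes of the sizes seen in that list would be missed. Genes and lists were chosen with earlier results of these data known. CPM per library was given for up to 4 called genes of each role with the smallest p (where fewer than 2 were called, for those with the highest CPM up to 2), and for FBL, NPM1, NCL, POLR1A, UBTF, RRN3, PES1, BOP1 and WDR12. Up to 3 genes of each further list were named by smallest p. Motifs were searched in RefSeq promoters, outside chromosome 8. Alternatives were RLE, upper-quartile and total-count scaling, DESeq2 1.42.0, limma 3.58.1 (voom, and the deposited log2 FPKM values without pseudocount), no filter, a replicate block and leaving out each library. Corrections for GC content and length were added after the data were seen.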

Additional observations from a re-analysis of the deposited data

How the results depend on the processing

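Ranges over the 6 fits that each left out a library were 5282 to 6547 genes called over all genes (2534 to 3258 higher, 2748 to 3289 lower), 12 to 20 of the 43 genes called (10 to 16 higher, 2 to 4 lower), a median log2 fold change of 0.05 to 0.07 for the 43, and 39 to 58 further pathway genes called (33 to 50 higher, 6 to 8 lower). With total counts only, 21 of the 43 were called higher and 1 lower, their median was 0.14, and 74 pathway genes were called higher and 4 lower; that scaling moved the median of all genes to 0.09. The number of the 43 called lower was 3 with upper-quartile scaling, 3 without a filter, 2 on the deposited log2 FPKM values and 3 on those with a mean of at least 0. On both log2 FPKM sets 4 pathway genes were called lower. The median of the 43 was 0.0742 with the GC correction and 0.0828 with the length correction. No called gene of the 43 reversed its direction in any of the 17 alternatives; with total counts, 5 genes that were not called had the opposite sign.

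With the replicate block, 26 of the 43 were called, 18 higher and 8 lower, and 7689 genes in all. Same-numbered libraries had deviations correlated at 0.19, 0.07 and 0.17, and each library correlated best with its own number, which is a hint from the data, not from the design. Low counts (from 99 per library) go with the widest standard error of the 43 genes, that of PPAN.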
